A study of Mus musculus with 16 samples.

Results

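The IL-22 response of epithelium with an intact Atg16l1 gene was examined in small intestinal organoids of Atg16l1 fl/fl mice, which carry the floxed allele without villin-cre and served as wild type in this study. Organoids are crypts grown in Matrigel into closed epithelial structures without stroma or immune cells. The cultures described are the 4 that received recombinant murine IL-22 at 10 ng/ml for 24 h and the 4 untreated ones, 8 of the 16 cultures sequenced. The other 8 cultures, 4 untreated and 4 given the same IL-22 dose, came from villin-cre+ Atg16l1 fl/fl mice (Atg16l1 ΔIEC), in which the gene is deleted in intestinal epithelial cells, and they entered here only to share the estimate of spread and as a comparison. The mice were young adults on a C57BL/6 background with littermate controls. The labels number 2 fl/fl organoid lines, each with 2 untreated and 2 treated cultures, so that n = 4 means 4 cultures of 2 lines. In the text, replicates 1 and 2 are the first line and replicates 3 and 4 the second. Cultures of a line are repeats of that line, and p values therefore describe these 2 lines.

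IL-22 is made by innate lymphoid cells and T cells and acts on epithelium, where its receptor pairs IL22RA1 with IL10RB. The receptor-bound kinases JAK1 and TYK2 phosphorylate STAT3, which enters the nucleus and switches on target genes, among them its own inhibitor Socs3. In the gut the cytokine is known for inducing secreted antimicrobial lectins, mucins and surface fucose, and for effects on crypt growth after injury.

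Reads counted on genes numbered 2135000 to 5574860 per fl/fl culture (median 3575724), which was 36.3% to 37.5% of the reads that the count table accounts for, and 16756 to 19649 genes had at least 1 count. Levels below are in CPM, the count of a gene scaled to a common library size with TMM factors for library composition. The lists of pan-epithelial, immune and stromal markers were read first. All 12 pan-epithelial genes were detected, with a summed level of 10290 to 13075 CPM in untreated and 14928 to 17066 CPM in treated cultures. Of 20 immune markers, 15 had no more than 3 counts in any fl/fl culture, among them Ptprc, which encodes the pan-leukocyte antigen CD45, and 7 had none. Their sum was 12.6 to 19.5 CPM untreated and 15.4 to 23.1 CPM after IL-22. Of 16 stromal and endothelial markers, 14 stayed at or under 3 counts, 6 of these had none, and the sum was at most 7.25 CPM. Atg16l1 itself was expressed at 40.2 ± 7.24 CPM untreated and 45.0 ± 6.33 CPM after IL-22 (SD, n = 4), a difference that did not pass the test (edgeR adjusted p = 0.43).

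Before the levels, the promoters of strongly induced genes are shown, because IL-22 signals through STAT3. The motif searched was TTCNNNGAA, the palindrome that STAT factors bind, which reads the same on both strands. Windows were the 300 bases from 250 before to 50 after each RefSeq start (GRCm38.p6). Of the 12 genes with the largest rise, 10 had a window and 3 held a match, in the bases before the start. The stretches of these 3 that lie outside annotated exons are given with the match in capitals, and the window of Reg3g, the near neighbour of Reg3b on chromosome 6, is given for comparison.
Reg3b, chr6:78370707-78370860, plus strand, match 129 to 121 bases before the start: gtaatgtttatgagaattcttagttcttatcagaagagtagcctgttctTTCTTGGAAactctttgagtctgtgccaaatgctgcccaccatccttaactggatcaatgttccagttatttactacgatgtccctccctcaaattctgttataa
Reg3g, chr6:78468875-78469124, minus strand, no match: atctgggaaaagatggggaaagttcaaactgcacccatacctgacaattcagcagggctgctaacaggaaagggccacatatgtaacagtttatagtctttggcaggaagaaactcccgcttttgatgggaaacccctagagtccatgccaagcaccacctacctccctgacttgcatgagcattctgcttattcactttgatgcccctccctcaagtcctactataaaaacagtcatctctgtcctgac
Socs3, chr11:117969452-117969616, minus strand, match 154 to 146 bases before the start: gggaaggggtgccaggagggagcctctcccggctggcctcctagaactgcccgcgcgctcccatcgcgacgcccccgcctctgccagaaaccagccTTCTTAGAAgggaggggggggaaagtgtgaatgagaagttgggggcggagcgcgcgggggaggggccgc
B3galt5, chr16:96235551-96235800, plus strand, match 10 to 2 bases before the start: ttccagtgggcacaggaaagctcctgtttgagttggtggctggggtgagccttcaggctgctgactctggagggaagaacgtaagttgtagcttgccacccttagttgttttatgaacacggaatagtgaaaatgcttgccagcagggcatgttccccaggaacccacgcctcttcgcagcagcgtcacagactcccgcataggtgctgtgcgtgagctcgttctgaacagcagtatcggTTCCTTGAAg
The motif was common. It was held by 8.30% of all 32851 windows, by 8.13% of the 9290 windows of tested genes, by 30 of 293 windows (10.2%) of genes at least doubled by IL-22 and by 17 of 281 windows (6.05%) of genes at least halved. Of Reg3b and Reg3g, both among the 12 largest rises, only the Reg3b window holds the letters. For Reg3b the RefSeq start differs from the GENCODE one. The GENCODE span of the gene given below begins further upstream, so the printed Reg3b stretch and its match lie inside that span. A match or its absence in so short a window is a description only.

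IL-22 changed the expression of about 3 in 10 tested genes. After a filter on low counts 12559 genes were tested, and 1880 were higher and 1957 lower with IL-22 (edgeR quasi-likelihood test with the line as a block, Benjamini-Hochberg adjusted p under 0.01), which is 15.0% and 15.6% of the genes tested. Without the block the numbers were 1329 and 1279. Most of these changes were small, with a median log2 fold change of 0.58 among the higher and −0.59 among the lower genes, and 1504 of the 3837 changed by less than 0.5. The number at least doubled was 418 (3.33%) and at least halved 365 (2.91%). The median over all tested genes was −0.05. The 8 cultures did not overlap between treatments in 398 of the 418 doubled and 333 of the 365 halved genes, beside 30.9% of all tested genes, and the direction was the same in both lines for all 783. These genes were chosen by their change in the same cultures, so both counts largely follow from that choice and are no separate evidence. Genes past the threshold took 20.5% ± 0.85 (higher) and 26.5% ± 0.24 (lower) of gene counts in untreated cultures, and 32.7% ± 0.28 and 17.6% ± 0.53 with IL-22 (SD, n = 4). As in any bulk sample, fewer cells of a type and less RNA per cell cannot be told apart in these values.

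**Figure D1:**
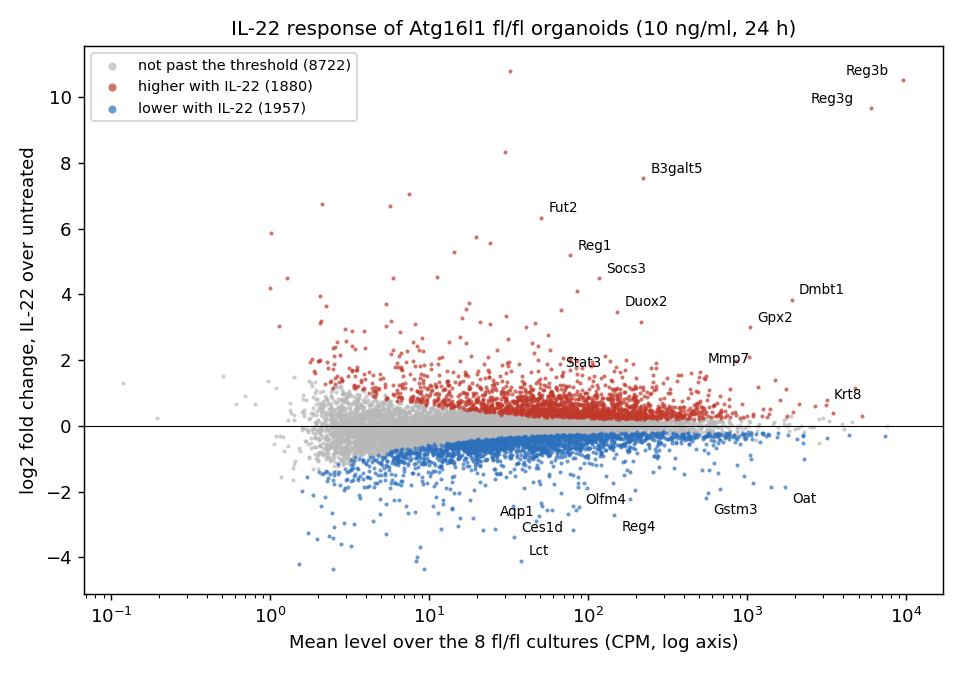
Each point is 1 of the 12559 tested genes, with its mean level over the 8 fl/fl cultures in CPM (log axis) against its log2 fold change with IL-22. Red points (1880) rose and blue points (1957) fell past an edgeR adjusted p of 0.01. Reg3b and Reg3g stand apart at the upper right, while most coloured points lie within 1 log2 unit of 0.

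Transcripts of the receptor pathway itself were among those that rose. Il22ra1, the IL-22 binding chain, was expressed at 18.4, 19.1, 19.0 and 19.8 CPM untreated and at 23.8, 26.9, 27.0 and 29.1 CPM after IL-22. Every treated culture was above every untreated one, a log2 fold change of 0.48 ± 0.12 (SE, edgeR adjusted p = 0.0013). It missed the threshold when either line was left out. The shared chain Il10rb (26.2 ± 4.95 and 26.7 ± 3.68 CPM, SD) and the kinase Tyk2 (40.0 ± 4.30 and 40.5 ± 0.83 CPM) overlapped between treatments and did not pass (edgeR adjusted p = 0.91 and 0.95), and neither did Jak1 (log2 fold change 0.18, edgeR adjusted p = 0.034). Stat3 was at 91.5, 86.0, 70.7 and 70.1 CPM untreated and 201, 213, 207 and 196 CPM after IL-22, a log2 fold change of 1.36 ± 0.07 (edgeR adjusted p = 1.0e-15). Its exons overlap those of Stat5a on the other strand, and the strand setting of the counting is not given. Jak3, a kinase best known from lymphocytes, rose from 14, 14.8, 16.8 and 19.0 CPM to 61.4, 71.3, 86.4 and 82.7 CPM (log2 fold change 2.22 ± 0.12, edgeR adjusted p = 8.9e-16). Osmr, the oncostatin M receptor chain that also signals to STAT3, had at most 1 count in an untreated culture and 8.26 to 13.9 CPM in treated ones, at least 11.9-fold higher when the untreated group is set to 3 counts per culture. Of 20 tested genes of the list of IL-22 receptor, JAKs and STATs, 7 were higher and 1 was lower, the interferon gamma receptor chain Ifngr2 (log2 fold change −0.44).

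The feedback inhibitor Socs3 and a number of immediate-early regulators rose. Socs3, which binds JAKs and blocks the signal, went from 12.3, 10.2, 5.89 and 9.36 CPM to 184, 200, 245 and 270 CPM, and the groups were far apart. The log2 fold change was 4.50 ± 0.13 (edgeR adjusted p = 2.4e-22). Among 37 tested feedback and partner regulators 22 were higher and none lower (median log2 fold change 0.47). They included the stress-response gene Ier3 (38.1 to 130 CPM, log2 fold change 1.75), the kinase Pim3 (42.6 to 128 CPM, 1.58), the transcription factor Klf6 (129 to 379 CPM, 1.55) and the NF-κB partner Bcl3 (33.2 to 93.2 CPM, 1.49), all as group means. Most other tested members of the Socs and Pias families did not pass.

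The largest rises were in secreted antimicrobial proteins. Reg3b and Reg3g encode C-type lectins that bind bacterial cell walls. Reg3b (chromosome 6, 78370657 to 78373466) was at 13.4, 11.2, 10.9 and 15.5 CPM untreated and at 18333, 18179, 20000 and 20131 CPM after IL-22. Reg3g (chromosome 6, 78466269 to 78468872) went from 14.9, 12.5, 19.0 and 13.4 CPM to 11402, 11327, 12676 and 12248 CPM. Both spread little within treatment, and the log2 fold changes were 10.53 ± 0.11 (edgeR adjusted p = 3.4e-34) and 9.67 ± 0.14 (edgeR adjusted p = 2.95e-30). Per kilobase of exon, Reg3b moved from rank 4680 to rank 1 among 23881 genes with a count, and Reg3g from rank 6462 to rank 4. The pair took 0.0023% to 0.0031% of gene counts in untreated cultures and 2.74% to 3.14% with IL-22.

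Other secreted defence genes followed at lower levels. Lrg1, a leucine-rich glycoprotein of the acute phase, had 0 counts in all 4 untreated cultures and 51.1, 76.9, 63.3 and 67.1 CPM after IL-22, at least 67.9-fold higher on the 3-count floor. Lcn2, which binds bacterial siderophores, had at most 1 count untreated and 44.1 to 74.1 CPM treated (at least 62.5-fold). Dmbt1, a scavenger receptor-like mucosal protein, went from 197, 214, 315 and 280 CPM to 3832, 3896, 3182 and 3290 CPM, a log2 fold change of 3.84 ± 0.12 (edgeR adjusted p = 1.9e-21). Reg1 rose from 1.46, 1.28, 7.71 and 6.96 CPM to 221, 245, 61.2 and 69.5 CPM (log2 fold change 5.19 ± 0.37), and the first line had the lower untreated and the higher treated level. Of 22 tested secreted defence genes 17 were higher and 2 lower, with a median log2 fold change of 2.16, or 1.83 with the 4 genes at the floor set to their bounds. The falling members were the polymeric immunoglobulin receptor Pigr (−0.28) and Reg4. Reg4, a lectin of secretory cells, fell from 307, 291, 202 and 215 CPM to 39.6, 39.5, 35.3 and 38.4 CPM, opposite to its relatives (log2 fold change −2.71 ± 0.09, edgeR adjusted p = 5.1e-21).

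Genes that build mucus and surface glycans were higher, and no member of the list was lower. B3galt5, a galactosyltransferase that makes type 1 glycan chains (chromosome 16, 96235801 to 96319859), was at 1.17, 4.34, 0.91 and 2.14 CPM untreated and at 402, 408, 495 and 457 CPM after IL-22. Fut2, which adds the terminal fucose used by commensal bacteria (chromosome 7, 45648591 to 45666394), was at 1.46, 1.79, 1.36 and 0.27 CPM untreated and at 87.1, 108, 96.9 and 108 CPM treated. The treatments lay far apart in both genes, and the log2 fold changes were 7.53 ± 0.15 (edgeR adjusted p = 2.6e-26) and 6.34 ± 0.24 (edgeR adjusted p = 6.0e-19). Of 31 tested mucin and glycosylation genes 21 were higher (median log2 fold change 0.66), including the membrane mucins Muc13 (1093 to 2384 CPM, 1.13) and Muc3 (279 to 699 CPM, 1.33), the branching enzyme Gcnt3 (204 to 444 CPM, 1.12) and the secreted mucin Muc2 (75.3 to 147 CPM, 0.96).

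**Figure D2:**
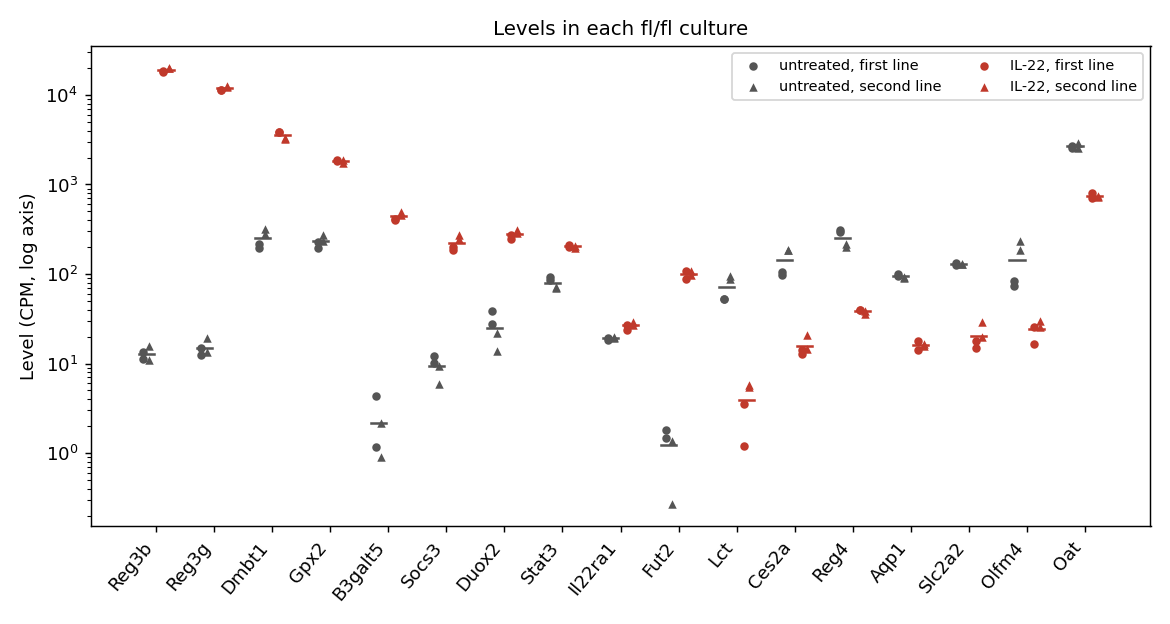
Level of 17 genes in each of the 8 fl/fl cultures in CPM (log axis), untreated in grey and IL-22 in red, with circles for the first line, triangles for the second and bars for the mean of 4 cultures. Reg3b and Reg3g rise by about 3 orders of magnitude, Il22ra1 moves from 19.1 to 26.7 CPM, and the 7 genes from Lct to Oat are lower in every treated culture.

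Enzymes that make or remove oxidants moved in both directions. Duox2, the epithelial NADPH oxidase that releases hydrogen peroxide, was at 38.3, 27.3, 21.8 and 13.6 CPM untreated and at 248, 270, 288 and 310 CPM after IL-22 (log2 fold change 3.47 ± 0.16, edgeR adjusted p = 2.2e-17). Its maturation factor Duoxa2 went from 10.5 ± 5.52 to 124 ± 15.6 CPM (SD, log2 fold change 3.54), and Duoxa1, which lies antisense to it with overlapping exons, showed 3.17. Gpx2, the glutathione peroxidase of intestinal epithelium, was at 230, 196, 272 and 231 CPM untreated and 1851, 1898, 1897 and 1739 CPM treated, and the groups lay far apart (3.00 ± 0.07, edgeR adjusted p = 7.5e-24). Nos2, the inducible nitric oxide synthase, rose by 2.44. Catalase (Cat, 138 to 62.7 CPM, −1.14), Sod1 (322 to 227 CPM, −0.51), the glutathione synthesis subunit Gclm (156 to 86.5 CPM, −0.85) and the arginase Arg2 (39.3 to 12.9 CPM, −1.62) fell. In all, 11 of 28 tested genes were higher and 7 lower (median log2 fold change 0.15).

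NF-κB feedback, cell death and growth factor genes were on the rising side. Of 26 tested NF-κB subunits, feedback genes and chemokines 17 were higher and 2 lower (median log2 fold change 0.74). The alarmin Il33 went from 64.6, 48.7, 31.7 and 31.6 CPM to 169, 200, 145 and 154 CPM (1.94 ± 0.11). The inhibitor Nfkbia rose by 1.14 and Nfkbiz by 1.26. The homeostatic chemokines Ccl25 (−0.80) and Ccl28 (−0.64) were the falling pair. Of 33 tested cell death regulators 18 were higher and 3 lower (median 0.44). They included the necroptosis kinase Ripk3 (66.3 to 231 CPM, 1.78), the nucleic acid sensor Zbp1 (1.20 to 10.3 CPM, 3.18) and the initiator protease Casp8 (154 to 347 CPM, 1.17). Of 18 tested EGF family genes 12 were higher and 2 lower (median 0.76), with the ligands Areg (290 to 781 CPM, 1.46) and Hbegf (27.1 to 69.2 CPM, 1.36), the receptor Erbb3 (0.86) and the feedback inhibitor Errfi1 (1.11) among the risers. The negative regulators Lrig1 (−0.44) and Lrig3 (−0.47) fell.

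No tested junction gene missed the threshold. Of 23 tested claudin and junction genes 22 were higher and 1 lower, beside 15.0% and 15.6% of all tested genes, but most changes were small (median log2 fold change 0.43). Cldn4, a sealing claudin, went from 359, 314, 188 and 197 CPM to 727, 775, 690 and 699 CPM, and the groups did not overlap (1.49 ± 0.11, edgeR adjusted p = 2.25e-12). Marveld3 (0.98) and the desmosomal cadherin Dsg2 (0.54) also rose. The cation pore claudin Cldn15 was the member that fell (−0.25), and it missed the threshold without the block. Keratins rose alongside. Of the 12 pan-epithelial genes 8 were higher and 1, the intestinal transcription factor Cdx2, was lower (−0.21). The Cdx2 call was lost with DESeq2, limma-voom and RLE scaling, without the block, without either line and whichever fl/fl culture was left out. Krt8 was at 3073, 2626, 2032 and 2132 CPM untreated and at 3714, 4459, 3495 and 3530 CPM after IL-22, while Epcam did not pass (log2 fold change 0.13).

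Rises were also found among unfolded protein response, interferon-stimulated and glycolysis genes. Of 45 tested ER chaperone and unfolded protein response genes 19 were higher and none lower (median log2 fold change 0.23), led by the transcription factor Xbp1 (169 to 422 CPM, 1.31) and the phosphatase subunit Ppp1r15a (27.5 to 66.7 CPM, 1.31), with the chaperone Hspa5 at 0.62. Of 41 tested interferon-stimulated genes 15 were higher and 2 lower (median 0.51, or 0.50 with the genes at the floor set to their bounds), of which Slfn2 had the largest rise (0.27 to 2.05 CPM untreated, 42.4 to 53.8 CPM treated). Of 19 tested MHC class I genes 5 were higher and 1 lower (median 0.05), with H2-D1 up by 0.75 and the related H2-Q2 down by 0.39. Of 29 tested glycolysis and hypoxia-inducible genes 11 were higher and 3 lower (median 0.17), with the oxygen-regulated factor Hif1a (77.0 to 239 CPM, 1.64), the hexokinases Hk2 (219 to 670 CPM, 1.60) and Hk1 (1.10) and the kinase Pfkfb3 (1.00) among the risers. Hif1a shares exon sequence with the predicted genes Gm15283 and Gm49321. Autophagy genes stood near the shares of all tested genes, with 7 of 39 higher (17.9%, beside 15.0%) and 5 lower (12.8%, beside 15.6%), and the cargo receptor Sqstm1 (168 to 362 CPM, 1.11) had the largest rise among them.

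Xenobiotic and retinoid metabolism had the lowest median of the lists examined. Of 50 tested members 41 were lower and 2 higher, with a median log2 fold change of −1.13. The carboxylesterases Ces1d and Ces2a, which hydrolyse drugs and lipid esters, went from 73.3, 76.8, 39.4 and 59.7 CPM to 6.33, 7.24, 6.01 and 3.60 CPM, and from 105, 96.5, 187 and 187 CPM to 14.3, 12.9, 20.8 and 14.4 CPM. No treated culture came near an untreated one in either gene, and the log2 fold changes were −3.39 ± 0.19 (edgeR adjusted p = 4.7e-15) and −3.18 ± 0.12 (edgeR adjusted p = 1.9e-19). The glutathione transferases Gstm1 (914 to 220 CPM, −2.05) and Gstm3 (906 to 199 CPM, −2.20), the retinol dehydrogenase Rdh7 (−3.06) and the cytochromes Cyp2c29 (−3.15), Cyp3a25 (−2.82) and Cyp3a11 (−4.11) fell as well. The 2 members that rose were the retinol dehydrogenase Dhrs9 (1.58) and the bile acid receptor Nr1h4 (0.55). The list held 1.32% ± 0.05 of gene counts untreated and 0.54% ± 0.01 with IL-22 (SD, n = 4).

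Lactase and some sugar transporters fell, while other genes of the brush border rose. Lactase (Lct, chromosome 1, 128284756 to 128328318) was at 52.3, 52.1, 93.8 and 88.5 CPM untreated and at 1.19, 3.51, 5.44 and 5.69 CPM after IL-22, a log2 fold change of −4.11 ± 0.16 (edgeR adjusted p = 6.5e-19). The glucose transporter Slc2a2 went from 134, 125, 131 and 128 CPM to 17.8, 14.7, 19.9 and 29.1 CPM (−2.69 ± 0.14). The sodium-glucose transporter Slc5a1 fell by 1.13 and the endopeptidase Mme by 3.99. In contrast the keratin Krt20 (189 to 546 CPM, 1.54), the linker Ezr (0.65), the microvillar cadherin Cdhr5 (0.47) and the peptidase Ace (1.15) rose. Several amino acid and peptide transporters of the list did not pass the threshold. Of 38 tested brush border and digestion genes 16 were lower (42.1%, beside 15.6% of all tested genes) and 7 higher (18.4%, beside 15.0%). Their median log2 fold change was −0.37. Untreated levels also differed by line, and the phosphatase Akp3 was at 2850 and 2242 CPM in the first and 742 and 755 CPM in the second line, against 683, 968, 234 and 164 CPM after IL-22.

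Lipid handling and oxidation were lower in the same cultures. Of 24 tested genes of lipid absorption 13 were lower (54.2%, beside 15.6% of all tested genes) and 4 higher (16.7%, beside 15.0%). Their median log2 fold change was −0.41. The fatty acid binding proteins Fabp1 (186, 165, 497 and 374 CPM to 40.8, 45.6, 76.0 and 89.0 CPM, −2.24 ± 0.16) and Fabp2 (84.2 to 16.3 CPM, −2.36) and the sterol exporters Abcg5 (−1.20) and Abcg8 (−1.15), whose exons overlap on opposite strands, fell. The tested apolipoprotein genes of the list were lower (−2.65 to −1.73), apart from apolipoprotein B (Apob). Apob was higher by 0.36, a call lost with limma-voom and without the block. Of 29 tested genes of fatty acid oxidation 15 were lower and 2 higher (median −0.34), among them Hadh (463 to 238 CPM, −0.97) and the carnitine transferase Cpt1a (−0.63). Of 29 tested sterol and fatty acid synthesis genes 14 were lower and 3 higher (median −0.23), with the desaturase Scd1 (827 to 322 CPM, −1.36) first. Of 59 tested respiratory chain genes 17 were lower and 2 higher (median −0.18), and those 2 were the mitochondrially encoded mt-Nd4 (0.43) and mt-Cytb (0.31). Both calls were lost without the block and without the first line, and that of mt-Cytb also with limma-voom.

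By abundance per kilobase, a metabolic enzyme was among the largest losses. Oat, which interconverts ornithine and glutamate, was at 2539, 2722, 2573 and 2937 CPM untreated and at 798, 715, 747 and 718 CPM after IL-22 (log2 fold change −1.86 ± 0.07), and moved from rank 29 to rank 156. The translation genes Eef1a1 (8083 to 6526 CPM, −0.32) and Rplp1 (1678 to 1453 CPM, −0.21) fell little but from high levels. The Rplp1 call was lost with RLE scaling, without the block and without either line, and that of Eef1a1 without the second line. The largest gains by the same measure, after Reg3b and Reg3g, were in the α-defensin Defa24 (3016 to 3878 CPM, 0.38, with overlapping cultures and no call with DESeq2 or limma-voom), the transcript Gm43305 of chromosome 14 (2951 to 6557 CPM, 1.16), Krt8, S100a11, Gpx2, Dstn, the Paneth cell protease Mmp7 and Dmbt1. Reads that align to several near-identical defensin genes are not counted, so the Defa24 level is uncertain.

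**Figure D3:**
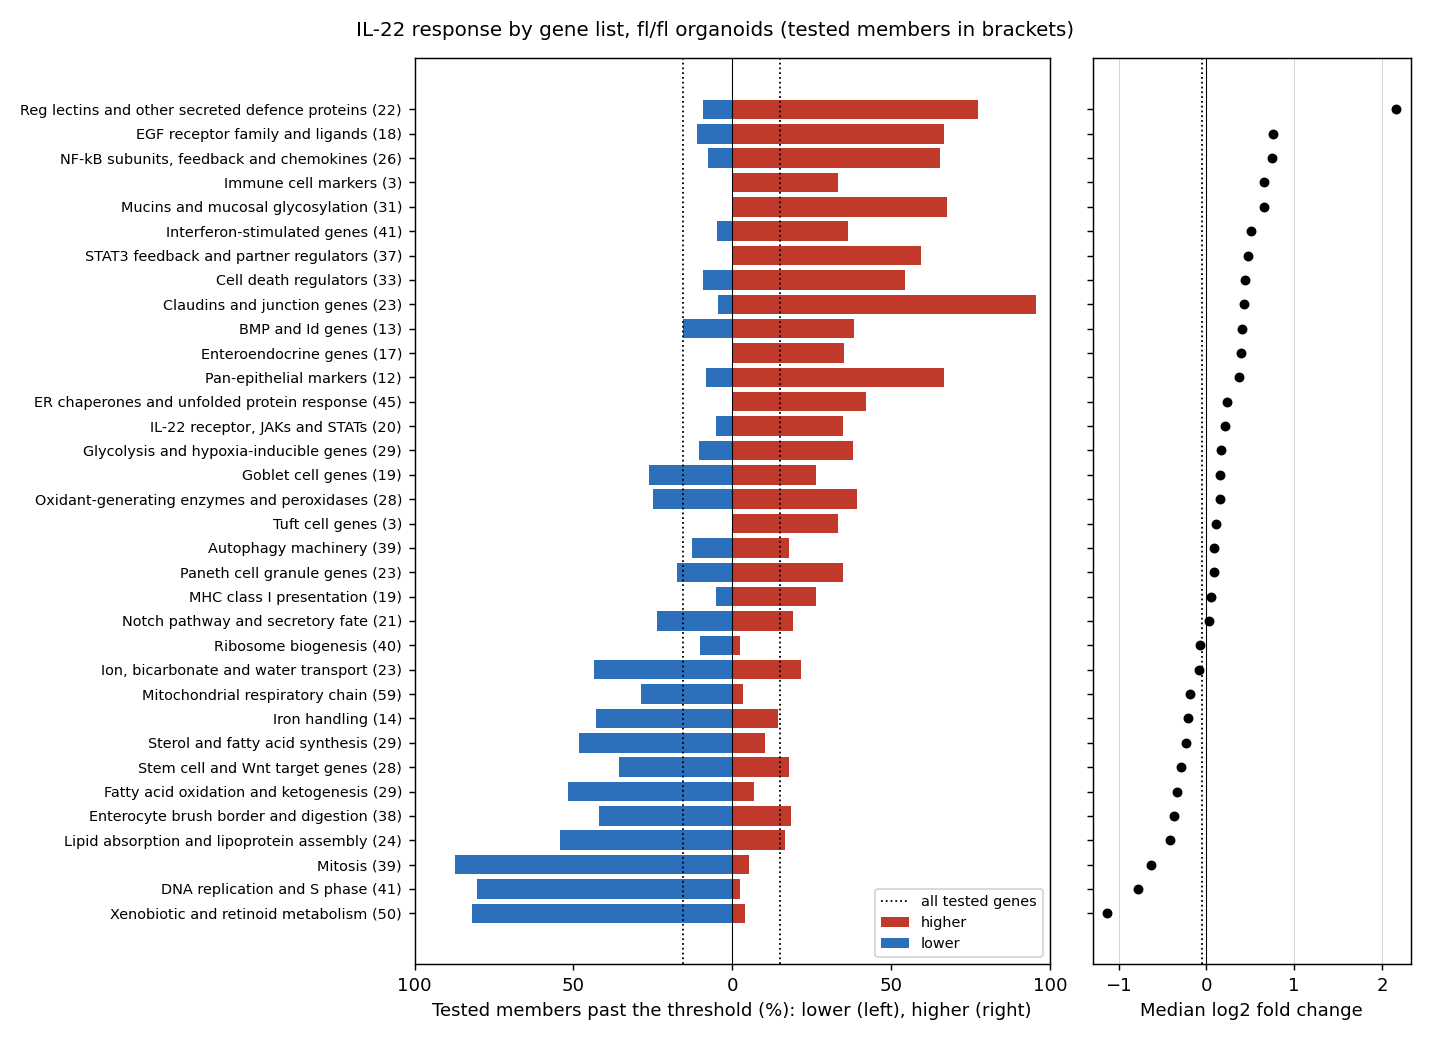
For each of 34 gene lists with a tested member, the left panel gives the share of tested members past the threshold (red, higher, and blue, lower, in %), with dotted lines at 15.0% and 15.6% for all tested genes. The right panel gives the median log2 fold change with a dotted line at −0.05, the median of all tested genes, and runs from 2.16 for secreted defence genes to −1.13 for xenobiotic and retinoid metabolism.

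Cell cycle genes were lower in nearly every member examined. Of 41 tested genes of DNA replication and S phase 33 were lower and 1, the transcription factor E2f2, was higher (0.39), with a median log2 fold change of −0.78. The E2f2 call was lost when either line was left out. The helicase subunit Mcm6 was at 122, 138, 191 and 194 CPM untreated and at 86.7, 66.4, 93.5 and 97.4 CPM after IL-22 (−0.91 ± 0.08, edgeR adjusted p = 3.4e-11). Of 39 tested mitosis genes 34 were lower and 2 higher (median −0.63). The cyclins Ccna2 (174 to 109 CPM, −0.67) and Ccnb2 (71.7 to 41.9 CPM, −0.78) and the proliferation marker Mki67 (−0.49) fell, and the cyclin-dependent kinase inhibitor Cdkn1a rose from 420 to 617 CPM (0.57). The second line had more S phase transcripts than the first in both treatments, at 0.32% against 0.21% to 0.22% of gene counts untreated and at 0.18% against 0.14% to 0.15% with IL-22. Ribosome biogenesis genes passed less often than all tested genes. Of 40 tested, 4 were lower (10.0%, beside 15.6%) and 1 was higher (2.5%, beside 15.0%), with a median of −0.07.

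Stem cell genes were lower more often than all tested genes, while the share of higher ones was near the background. Of 28 tested stem cell and Wnt target genes 10 were lower (35.7%, beside 15.6%) and 5 higher (17.9%, beside 15.0%). The median log2 fold change was −0.28. Olfm4, a secreted marker of crypt base stem cells, was at 73.3, 83.2, 234 and 187 CPM untreated and at 25.3, 16.6, 25.5 and 29.7 CPM after IL-22 (−2.55 ± 0.18, edgeR adjusted p = 1.2e-12), and it shares exon sequence with Gm6999. The crypt base gene Smoc2 (129 to 44.0 CPM, −1.56), Rgmb (−1.09) and Slc12a2 (1416 to 702 CPM, −1.02) also fell, whereas Prom1 (323 to 656 CPM, 1.02), the Wnt target Sp5 (0.93), Lgr4 (0.35) and Fzd7 (0.41) rose. Lgr5 itself did not pass (−0.28). Of 13 tested BMP and Id genes 5 were higher and 2 lower (median 0.40), with Id1 at 1.19. Of 21 tested Notch and secretory fate genes 4 were higher (19.0%, beside 15.0%) and 5 lower (23.8%, beside 15.6%), with a median of 0.03. The ligand Dll4 rose by 1.10 and the Notch target Hes1 fell by 0.49. The Hes1 call was lost when either line was left out.

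Paneth and goblet cell lists held members that rose and members that fell, while the called enteroendocrine genes were all higher. Of 23 tested Paneth cell genes 8 were higher (34.8%, beside 15.0% of all tested genes) and 4 lower (17.4%, beside 15.6%). The median log2 fold change was 0.08, with Mmp7 (248 to 763 CPM, 1.63) and the phospholipase Pla2g2a (1.96) up, Kit (23.2 to 9.33 CPM, −1.30) down and lysozyme Lyz1 not past the threshold (−0.06). The share of gene counts on the list was 1.04% and 0.98% untreated and 1.13% and 1.03% after IL-22 in the first line, which overlapped, and 0.81% and 0.68% against 0.88% and 0.88% in the second, which did not. In CPM with TMM factors the Paneth sums of the first line did not overlap either (10527 and 10073 untreated, 12049 and 11070 with IL-22). Of 19 tested goblet cell genes 5 were higher and 5 lower (median 0.16). Their share was lower after IL-22 within each line without overlap, at 0.37% and 0.36% against 0.32% and 0.31% in the first and 0.25% and 0.25% against 0.24% and 0.23% in the second. In CPM with TMM factors the goblet sums of the second line overlapped (2399 and 2464 untreated, 2536 and 2345 with IL-22). The overlap within a line therefore depended on the scale. Retnlb had 0 counts untreated and 1.64 to 5.94 CPM treated, at least 4.46-fold higher on the 3-count floor, while Tff3 (685 to 503 CPM, −0.43) and Klk1 (−0.67) fell. Of 17 tested enteroendocrine genes 6 were higher and none lower (median 0.40), with the neuropeptide Tac1 (4.92 to 17.9 CPM, 1.88) and glucagon (Gcg, 5.97 to 13.4 CPM, 1.13) at low levels. Of 3 tested tuft cell genes Avil was higher (1.83). Of the 3 immune markers tested, Cd68, which epithelia also express at low levels, was higher (2.01 to 4.74 CPM, 1.20), with a median of 0.66, or −0.04 with the gene at the floor set to its bound, and no stromal marker was tested. The Cd68 call was lost with DESeq2, without the block and without either line.

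**Figure D4:**
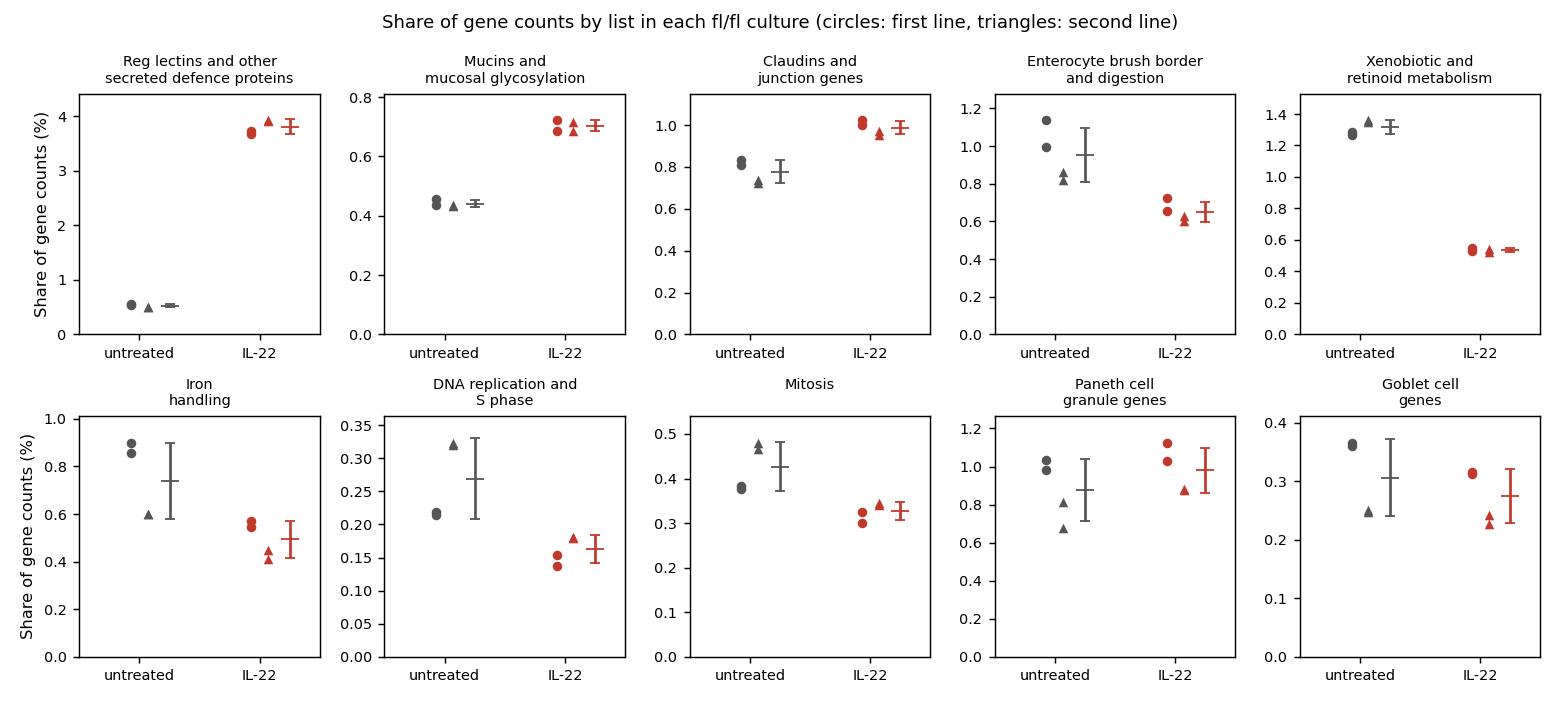
Share of gene counts (%) taken by 10 gene lists in each fl/fl culture, untreated in grey and IL-22 in red, with circles for the first line, triangles for the second and a bar for the mean ± SD of 4 cultures. Secreted defence genes rise from 0.53% to 3.81% and xenobiotic genes fall from 1.32% to 0.54%, while Paneth and goblet lists differ between the lines.

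Transport genes for water, ions and iron were lower more often than higher. Of 23 tested transport genes 10 were lower (43.5%, beside 15.6% of all tested genes) and 5 higher (21.7%, beside 15.0%). Their median log2 fold change was −0.08. The water channel Aqp1 fell from 94.4, 99.8, 90.2 and 93.1 CPM to 17.8, 14.3, 16.3 and 15.6 CPM, with little spread in either group (−2.57 ± 0.09, edgeR adjusted p = 1.2e-19). The sodium-proton exchanger Slc9a3 rose from 65.3 to 177 CPM (1.44), Kcne3 by 0.80, and the chloride channel regulator-like Clca4b from 346 to 1344 CPM (1.96). Of 14 tested iron genes 6 were lower (42.9%, beside 15.6%) and 2 higher (14.3%, beside 15.0%), with a median of −0.21. The 2 higher ones were Lcn2 and the haem oxygenase Hmox1 (21.2 to 66.8 CPM, 1.63). The iron importer Slc11a2 went from 1925, 1769, 948 and 958 CPM to 647, 695, 378 and 251 CPM (−1.52 ± 0.11), and ferritin heavy chain Fth1 fell by 0.54.

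Both lines answered in the same direction. Fitted on the 4 cultures of the first line alone, with the spread shared with the ΔIEC cultures, 983 genes were higher and 881 lower, and on those of the second line alone 1391 were higher and 996 lower. The number higher in both was 849, which is 86.4% of the first and 61.0% of the second list, and the number lower in both was 584 (66.3% and 58.6%). No gene passed in opposite directions. Rises were somewhat larger in the second line, with a median log2 fold change of 1.62 against 1.28 over the doubled genes and a larger value in 306 of the 403 whose untreated level was above the floor. Over the halved genes the medians were −1.40 in the first and −1.38 in the second line. A formal test of line by IL-22 called 2 of 12559 genes (0.0159%), with 856 at an unadjusted p under 0.05. The chloride channel regulator-like Clca3b was at 108 and 109 CPM untreated and 214 and 225 CPM after IL-22 in the first line, against 261 and 224 CPM and then 199 and 206 CPM in the second (log2 fold changes 1.02 and −0.25, edgeR adjusted p = 1.2e-06). The annexin Anxa10 rose in both, from 80.4 and 72.2 to 147 and 172 CPM and from 18.6 and 23.3 to 109 and 110 CPM (1.08 and 2.35, edgeR adjusted p = 0.0082). Capg, Il1rn and S100a14 came next (edgeR adjusted p = 0.011 each), and in all 3 the second line started lower, for S100a14 at 42.2 and 43.6 CPM against 111 and 115 CPM. DESeq2 called 8 genes in this test.

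**Figure D5:**
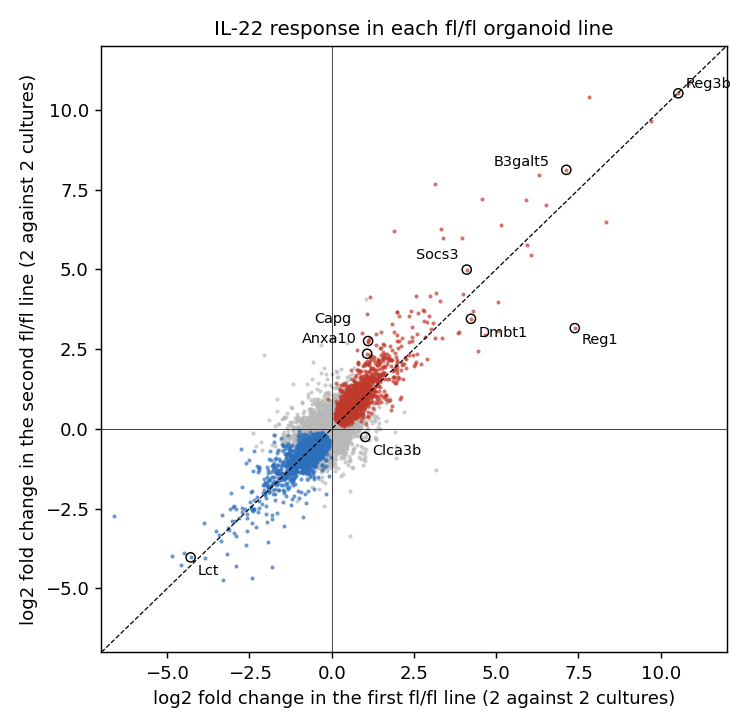
Log2 fold change with IL-22 in the first (horizontal) and second (vertical) fl/fl line for the 12559 tested genes, coloured by the call over both lines, with a dashed line of equality. Points follow the diagonal, Clca3b lies below 0 in the second line only, and Reg1 (7.39 and 3.16) lies below the diagonal.

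The response was close to that of Atg16l1 ΔIEC organoids for most of these genes. The difference between genotypes passed for 56 of 12559 genes (0.446%), which comprised 6 of the 418 doubled and 12 of the 365 halved genes. The number was 2 without the line as a block, 5 with limma-voom and 69 with DESeq2. The ΔIEC effect had the same sign for 415 of the doubled and 362 of the halved genes, with medians of 1.34 and −1.37 against 1.41 and −1.40 in fl/fl. The genes were chosen by their fl/fl change, so the fl/fl medians are favoured by that choice and the ΔIEC medians are not. Rises were smaller in ΔIEC for Gpx2 (difference −0.90, edgeR adjusted p = 1.8e-06), Dmbt1 (−0.86, edgeR adjusted p = 0.0016), Clca4b (−0.78, edgeR adjusted p = 7.1e-05) and Clca4a (−1.50, edgeR adjusted p = 0.0017), and larger for Pla2g2a (1.18, edgeR adjusted p = 5.9e-04). Falls were larger in ΔIEC for Fbp1 (−1.90, edgeR adjusted p = 0.0037), Akp3 (−1.14, edgeR adjusted p = 0.0092), Slc11a2 (−0.97, edgeR adjusted p = 6.2e-04) and S100g (−0.68, edgeR adjusted p = 0.0081). For Socs3, Reg3g, Fut2 and B3galt5 the difference did not pass (edgeR adjusted p = 0.80, 0.33, 0.23 and 0.76), which does not show that the effects are equal.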

How the data were processed

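RNA was sequenced from 16 organoid cultures, and the 8 fl/fl ones are described. The authors trimmed reads with cutadapt, aligned them to GRCm38/mm10 with TopHat2 and counted them per gene with HTSeq, and deposited whole-number counts without normalization. The labels name the Illumina TruSeq RNA v2 kit and the study's methods a strand-keeping total RNA protocol. Versions and the strand setting of the counting are not given in the sources used here. Reads assigned to no feature (38.1% to 40.1%) or to several places (21.8% to 24.2%) were left out.

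Genes with low counts were removed by filterByExpr, leaving 12559 of 49585. Counts were scaled by TMM and tested with edgeR's quasi-likelihood test over all 16 cultures, with organoid line as a block, an IL-22 effect per genotype and Benjamini-Hochberg adjustment. The line numbering in the labels pairs the cultures, and deviations from the group means correlated within lines (r = 0.26 to 0.44). Positions came from GENCODE vM21. The planned permutation test of list shares was not used.

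The gene lists and the named genes were chosen with earlier results of these data known. Named genes were the 12 largest rises and falls with a mean of at least 10 CPM, the 10 largest by CPM per kilobase, up to 4 per list and direction by p, the receptor pathway, the 5 smallest line by IL-22 p values and Atg16l1, of which those described are a selection. Cyp3a11, Duoxa1, Epcam, Lgr5, Lyz1, Mki67, Mme and Ptprc were added after their values were seen. DESeq2, limma-voom and the other settings described at the end were alternatives.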

Additional observations from a re-analysis of the deposited data

Results flagged for a closer look

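Over the 306 groups of 4 fl/fl cultures examined for the genes named above, 6 held a culture far from the other 3, where chance marks about 1 in 20. Untreated replicate 4 was low for Arg2 (33.4 CPM, the others 40.8 to 41.6 CPM), untreated replicate 1 was high for Cdhr5 (224 CPM, the others 195 to 198 CPM), and untreated replicate 3 was low for Nr1h4 (19.9 CPM, the others 25.3 to 25.7 CPM) and for Sod1 (308 CPM, the others 326 to 329 CPM). Treated replicate 4 was high for Kit (9.89 CPM, the others 9.11 to 9.20 CPM), and treated replicate 1 was low for Slc9a3 (151 CPM, the others 185 CPM).

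The IL-22 effect differed between the fl/fl lines (second minus first, log2) for Clca3b by −1.27 (edgeR adjusted p = 1.2e-06) and for Anxa10 by 1.28 (edgeR adjusted p = 0.0082). It differed between genotypes (ΔIEC minus fl/fl, log2) for Akp3 (−1.14), Clca4a (−1.50), Clca4b (−0.78), Dmbt1 (−0.86), Fbp1 (−1.90), Gpx2 (−0.90), Pla2g2a (1.18), S100g (−0.68) and Slc11a2 (−0.97), as described. The same test passed for 4 further genes. Fzd7 (−0.69), mt-Cytb (−0.74) and mt-Nd4 (−0.89) rose in fl/fl and had log2 fold changes of −0.27, −0.42 and −0.46 in ΔIEC. Gclm fell by 0.85 in fl/fl and by 0.21 in ΔIEC, a difference of 0.64.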

How the results depend on the processing

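Of 142 genes named above that passed the threshold, 115 did so in every alternative in which they were tested, 27 missed it in at least 1, and none reversed. With at least 10 counts in every fl/fl culture, 18 of the 142 were not tested. Clca3b, which did not pass, reversed to −0.23 without the first line and was at 1.02 without the second. The numbers of higher and lower genes were 1776 and 1539 with DESeq2, 1994 and 1825 with RLE scaling, 1715 and 1759 with limma-voom and 1528 and 1430 with cultures of a line summed. Leaving out 1 fl/fl culture or 1 line gave 983 to 1775 higher, 881 to 1796 lower, 305 to 514 doubled and 292 to 377 halved genes. The lowest counts came without the second line (983 higher, 881 lower), and without the first line 996 were lower. Fewer cultures entered those fits. With at least 10 counts in every fl/fl culture, 192 genes were halved. The line by IL-22 count was 36 in the 8 fl/fl cultures alone, 8 with DESeq2, 34 without a filter, 1 with at least 10 counts, 13 at an adjusted p under 0.05 and 1 to 5 without 1 culture (1 without treated replicate 1, 3 or 4 or untreated replicate 4, 5 without untreated replicate 2 and 4 without untreated replicate 3). The genotype count was 5 with limma-voom, 180 without a filter, 11 with cultures summed, 189 at an adjusted p under 0.05 and 26 to 60 without 1 culture or line (26 without untreated replicate 2 or the first line, 32 and 34 without treated replicates 2 and 3, 37 without untreated replicate 3 and 35 without the second line). The cause was not tested. As CPM with TMM, the rise was 3.10 percentage points for Reg3b and Reg3g, 3.50 for secreted defence genes and 0.27 for junction genes.

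Without the line as a replicate block, 1329 genes were higher and 1279 lower, 367 doubled and 323 halved, and the genotype count was 2. Akp3, Cdkn1a, Tff3 and 13 other named genes then missed the threshold. Cd68, Cdx2, Defa24 and Lrig3 missed it with DESeq2, and Apob, Cdx2, Defa24, Il1rn and mt-Cytb with limma-voom.

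The 2 fl/fl lines and 2135000 to 5574860 gene counts per culture limit these values. The smallest fl/fl library has a 3-count floor near 1 CPM, so genes near that level are uncertain. The sources differ on whether the kit kept strand and give no strand setting for the counting. If it was not used, reads of overlapping genes on opposite strands (Stat3 and Stat5a, Duoxa1 and Duoxa2, Abcg5 and Abcg8) cannot be told apart.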
